A study of Mus musculus with 10 samples.

Results

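The FOS, JUN and MAF transcription factors, with the related factor gene Atf3 and the zinc finger gene Egr1, were examined in CD8+ T cells co-cultured with tumor cells. The 10 genes were Fos, Fosb, Fosl1, Fosl2, Jun, Junb, Jund, Maf, Atf3 and Egr1, taken by gene name from a table of 57825 genes, in which each of them is listed once. CD8+ T cells had been isolated from spleens of female Balb/c mice and activated for 12 h on plates coated with anti-CD3, with anti-CD28 and IL-2. Cells of both groups then received 24 h of pretreatment culture and 48 h of co-culture with the mouse breast carcinoma line 4T1, and the labels place every sample on day 3. The 5 samples of the CD8+4T1 group received no sodium acetate (NaAc), and the 5 samples of the CD8+4T1+NaAc group received 5 mM. All samples were thus activated and tumor-exposed, and RNA is described as coming from purified CD8+ T cells, without saying whether a purification followed the co-culture. The sources do not say whether the replicates came from separate mice or cultures, so each p-value measures the spread between these samples, which may be technical. The comparison asks how AP-1 transcripts differed with NaAc in the RNA of these co-cultured samples, whose tumor cell markers are given below.

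AP-1 is a family of dimers that bind DNA through a basic region next to a leucine zipper (bZIP). FOS proteins do not pair with each other and need a JUN partner, whereas JUN proteins can also pair among themselves, and ATF3 and MAF are bZIP proteins that join the same network. In T cells, antigen receptor and CD28 signals induce FOS and JUN, which bind together with NFAT at cytokine genes, and several of these genes are immediate early genes, whose transcripts appear within minutes of a stimulus and decay quickly. EGR1 is not a bZIP protein but belongs to the same early response.

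Expression is given in FPKM, fragments scaled to gene length and to the fragments of the sample, so that levels can be compared between genes. The values were scaled to 16306447 to 17443395 fragments per sample in the CD8+4T1 group and 16503701 to 18853726 in the CD8+4T1+NaAc group. The listed genes held 95.5% to 97.9% of these fragments without NaAc and 89.8% to 92.1% with NaAc. The library labelled replicate 1 had the fewest genes above 0 in each group, 22291 and 20233, against at most 24054 and 25088 in the others. The labelled cell type was checked against its markers: 15 of 15 T cell markers were above the low-value limit, with Cd8a at a mean of 78.6 FPKM without and 76.5 FPKM with NaAc. Some markers of epithelial and 4T1 cells were also present, and their summed level was higher with NaAc. Fos and Fosb rose in the same samples, and the marker values are set against them further below, after the family shares.

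Of the 10 genes, 9 averaged 0.5 FPKM or more and were tested, each with every sample above that level, and Maf was below it. Of the 9, 6 differed between the groups at an adjusted p under 0.05. Fos, Fosb, Jun and Jund were higher with NaAc, and Egr1 and Atf3 were lower. Fosl1, Fosl2 and Junb did not pass the test. Among all 15710 genes tested, 36.5% were called, 17.6% higher and 19.0% lower. The median log2 fold change of the 9 genes was 0.19, against -0.02 over all genes tested. The values of the groups did not overlap for Fos, Fosb and Egr1, 3 of the 10, beside 26.4% of all genes tested. With the samples rescaled to a common total, the median over all genes moved by 0.17 on the log2 scale, and the share of higher calls among all called genes went from 48.1% to 78.0%. With that scaling 5 of the 9 genes were called higher and 1 lower, and with limma's voom on fragments, where the share of higher calls was 65.5%, 4 were called higher and 1 lower.

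**Figure D1:**
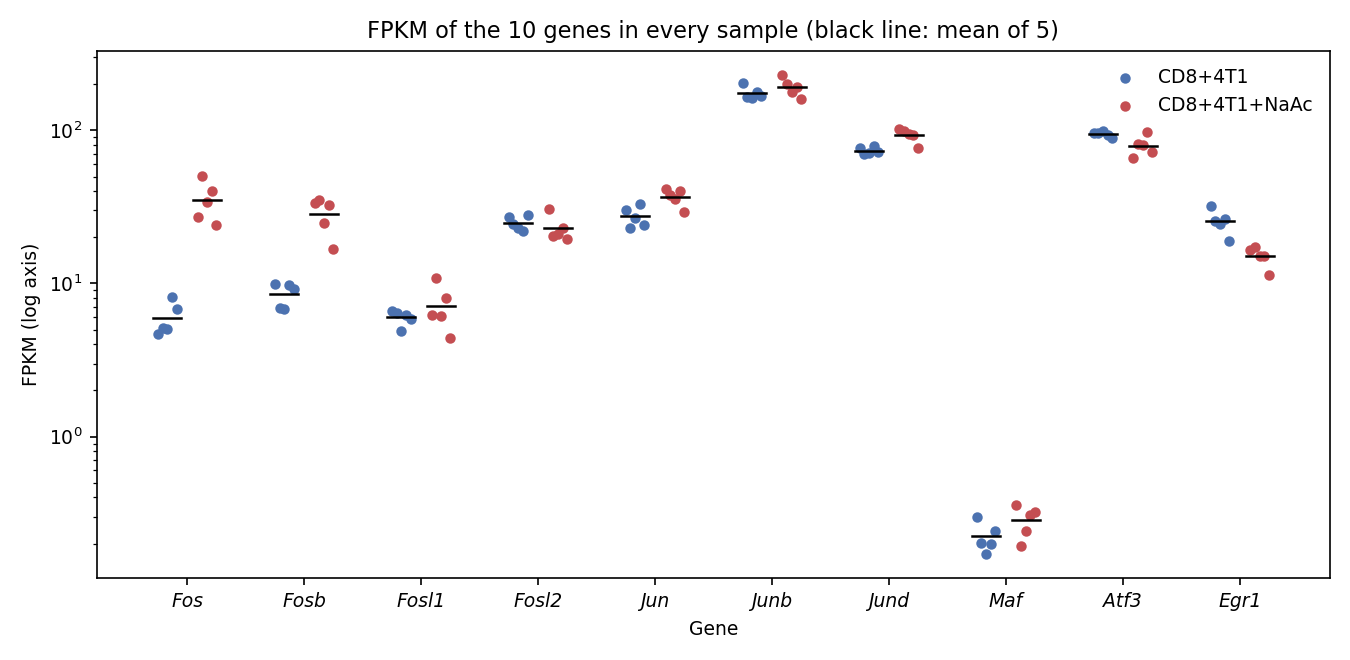
FPKM of each gene (log axis) in the 5 CD8+4T1 samples (blue) and the 5 CD8+4T1+NaAc samples (red), with replicates 1 to 5 from left to right and a black line at the mean. Fos and Fosb of the NaAc samples lie above every CD8+4T1 sample, Egr1 lies below, and the other genes overlap.

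Fos, the classic early response member of the family, had the largest rise. It lies at chr12:85520664-85524047 on the plus strand (ENSMUSG00000021250). Without NaAc its level was 4.71, 5.12, 5.06, 8.13 and 6.83 FPKM in replicates 1 to 5, and with NaAc it was 27.3, 50.3, 33.9, 39.96 and 24.2 FPKM. The lowest NaAc sample was thus far above the highest sample without NaAc, and NaAc replicate 2 was the highest. The means were 5.97 ± 1.46 and 35.1 ± 10.4 FPKM (SD, n = 5 each), a 5.88-fold rise. The log2 fold change was 2.52 (SE 0.21, adjusted p = 2.77e-05), and 155 of the tested genes, or 0.987%, rose more. The call held in each of the 9 alternative fits on all samples and each time 1 sample was left out, with log2 fold changes between 2.35 and 2.69.

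Fosb, a close paralog of Fos, rose as well. It lies at chr7:19036621-19043976 on the minus strand (ENSMUSG00000003545). The CD8+4T1 samples held 9.98, 6.91, 6.81, 9.77 and 9.16 FPKM, and the CD8+4T1+NaAc samples held 33.8, 35.1, 24.7, 32.8 and 16.9 FPKM. The groups did not overlap, and NaAc replicate 5 was the lowest of its group. The mean went from 8.52 ± 1.55 to 28.7 ± 7.71 FPKM (SD, n = 5 each), 3.36-fold, with a log2 fold change of 1.71 (SE 0.21, adjusted p = 0.000155). This call too held in every alternative fit and with each sample left out.

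Promoters of Fos, Fosb and Jun are shown because the bases just before their start hold sites known for factors that respond to cAMP and to AP-1 itself. The sequences are from RefSeq on GRCm38.p6, were matched by symbol for 7 of the 10 genes, and run over the 250 bases before the start of the gene, 5′ to 3′ on the gene's strand. Capitals mark TGACG, the opening letters of the cAMP response element TGACGTCA, the octamer TGACATCA, and TATAAA.
Fos, chr12:85473640-85473889, plus strand: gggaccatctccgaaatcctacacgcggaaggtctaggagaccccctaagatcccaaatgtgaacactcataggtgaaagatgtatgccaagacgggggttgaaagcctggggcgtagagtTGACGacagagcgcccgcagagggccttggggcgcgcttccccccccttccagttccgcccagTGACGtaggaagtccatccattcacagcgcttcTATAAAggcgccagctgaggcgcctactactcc
Fosb, chr7:19310046-19310295, minus strand: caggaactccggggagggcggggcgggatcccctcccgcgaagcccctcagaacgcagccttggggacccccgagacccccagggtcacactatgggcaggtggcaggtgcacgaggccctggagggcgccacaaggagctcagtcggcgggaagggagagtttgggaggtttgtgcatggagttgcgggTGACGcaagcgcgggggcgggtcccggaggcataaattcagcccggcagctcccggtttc
Jun, chr4:95052223-95052472, minus strand: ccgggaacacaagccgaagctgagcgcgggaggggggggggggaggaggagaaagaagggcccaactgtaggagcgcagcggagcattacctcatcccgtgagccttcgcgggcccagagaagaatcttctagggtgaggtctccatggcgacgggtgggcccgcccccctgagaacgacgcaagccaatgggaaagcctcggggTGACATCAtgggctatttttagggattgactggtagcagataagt
In Fos, TGACG begins 129 and 66 bases before the start, and TATAAA begins 33 bases before it. Fosb has TGACG 60 bases before the start, followed without overlap by a match to GCGNGGGCG, the letters bound by EGR proteins, 50 bases before it. In Jun, TGACATCA begins 45 bases before the start. TGACG was also found in Junb, 106 bases before the start, and on the opposite strand in Atf3, and GCGNGGGCG in Fosl2, 79 bases before the start. On both strands of windows of the same length, TGACG was present in 17.8% of 32851 promoters, TGACATCA in 2.93% and GCGNGGGCG in 4.7%. TATAAA, read on the gene's strand, was in 7.59%. The AP-1 site TGANTCA (6.75% of promoters), the whole element TGACGTCA (1.55%) and the CArG box of SRF (1.47%) matched in none of the 7 windows, which says only that these letters are not in the windows. A match describes the sequence and was not tested for any role in these samples.

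The FOS-related antigens Fosl1 and Fosl2 did not pass the test. Fosl1, which encodes FRA1, is at chr19:5497575-5505974 on the plus strand and had 6.59, 6.40, 4.89, 6.24 and 5.90 FPKM without NaAc and 6.27, 10.9, 6.11, 8.05 and 4.41 FPKM with NaAc. The NaAc samples reached both above and below the other group. The log2 fold change was 0.19 (SE 0.20, adjusted p = 0.497), with a 95% confidence interval from -0.26 to 0.64. Fosl1 overlaps Ccdc85b on the opposite strand, which went from a mean of 5.87 to 7.72 FPKM, and whether the counting used strand is not stated.

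Fosl2, which encodes FRA2, is at chr5:32293145-32315186 on the plus strand. Its level was 27.2, 24.4, 23.1, 21.9 and 28.03 FPKM without NaAc and 30.5, 20.4, 20.9, 23.0 and 19.6 FPKM with NaAc. Replicate 1 was the highest NaAc sample, and replicates 2, 3 and 5 were below every sample of the other group. The log2 fold change was -0.13 (SE 0.12, adjusted p = 0.416; interval -0.40 to 0.13). Without NaAc replicate 1 it was -0.24 and passed the test (adjusted p = 0.0317), and with samples rescaled to the same total the sign turned, to 0.04.

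Among the JUN genes, Jun and Jund rose and Junb did not pass the test. Jun encodes c-Jun, the main partner of FOS, and is at chr4:94937271-94940459 on the minus strand. Its FPKM were 30.1, 23.1, 26.7, 33.1 and 24.1 without NaAc and 41.3, 38.0, 35.4, 40.2 and 29.5 with NaAc. Replicates 1 to 4 of the NaAc group were above every sample of the other group, and replicate 5 fell within its range. The mean rose 1.34-fold, with a log2 fold change of 0.43 (SE 0.12, adjusted p = 0.0147). The adjusted p stayed between 0.00167 and 0.0291 in the alternative fits on all samples.

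Jund, which is expressed in resting cells and responds less to stimuli than the other JUN genes, is at chr8:71151599-71153265 on the plus strand. It went from 76.9, 69.7, 71.1, 79.4 and 72.2 FPKM to 102.4, 98.8, 94.5, 93.8 and 77.0 FPKM. Here too NaAc replicate 5 alone lay within the range of the other group. The rise was 1.26-fold (log2 fold change 0.33, SE 0.08, adjusted p = 0.00621).

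Junb was the most abundant of the 10 genes in both groups and is known in T cells as a partner of BATF and IRF4. It is at chr8:85701113-85705347 on the minus strand. Its FPKM were 204.2, 165.6, 162.0, 177.4 and 167.9 without NaAc and 231.2, 201.0, 178.5, 193.3 and 160.0 with NaAc. The groups overlapped widely, and the highest and the lowest of all 10 samples were both NaAc samples. The log2 fold change was 0.13 (SE 0.10, adjusted p = 0.337; interval -0.09 to 0.35), and Junb was called only with samples rescaled to the same total (0.31, adjusted p = 0.0446). Junb overlaps Prdx2 on the opposite strand, at a mean of 58.2 FPKM without and 68.4 FPKM with NaAc.

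Atf3, a stress-induced bZIP gene often described as a repressor, was lower with NaAc by a small margin. It is at chr1:190902493-190950236 on the minus strand. The CD8+4T1 samples were close together, at 96.5, 96.8, 99.6, 93.5 and 89.2 FPKM, whereas the NaAc samples spread over 66.1, 81.4, 80.1, 97.0 and 72.5 FPKM. NaAc replicate 4 reached the level of the other group, and the remaining NaAc samples were below all of it. The log2 fold change was -0.27 (SE 0.09, adjusted p = 0.0362). This call was lost with no low-value filter, without trend and robust moderation, with voom, when samples were rescaled to the same total (-0.09, adjusted p = 0.448), and when 1 of 7 samples was left out: CD8+4T1 replicate 1, 2, 3 or 4 or NaAc replicate 2, 3 or 5. The highest adjusted p with 1 sample left out was 0.081, and without replicate 1 of both groups it was 0.0761.

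Maf, which encodes c-MAF, an activator of Il10 and Il4, was near the limit of measurement. It is at chr8:116409681-116434533 on the minus strand. Its values were 0.298, 0.202, 0.171, 0.199 and 0.243 FPKM without NaAc and 0.355, 0.193, 0.243, 0.308 and 0.321 FPKM with NaAc, which rest on 23 to 50 fragments per sample. The groups overlapped, and an exact permutation test of the difference in mean log2(FPKM + 0.1) gave p = 0.143 (two-sided, n = 5 each), where the smallest p this design allows is 0.00794. Without NaAc replicate 2 the same exact test gave p = 0.0397, and with any other sample left out p was between 0.0952 and 0.278. With all samples, the difference in Maf did not pass the test.

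Egr1, a zinc finger factor induced with Fos by ERK and SRF signals, moved opposite to Fos. It is at chr18:34992876-34998037 on the plus strand. It was at 31.9, 25.5, 24.4, 26.4 and 19.0 FPKM without NaAc and at 16.6, 17.4, 15.2, 15.0 and 11.4 FPKM with NaAc. The groups did not overlap, and replicate 5 was the lowest sample of each group. The mean fell from 25.5 ± 4.60 to 15.1 ± 2.31 FPKM (SD, n = 5 each), with a log2 fold change of -0.74 (SE 0.14, adjusted p = 0.00211). This call held in every alternative fit and with each sample left out.

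**Figure D2:**
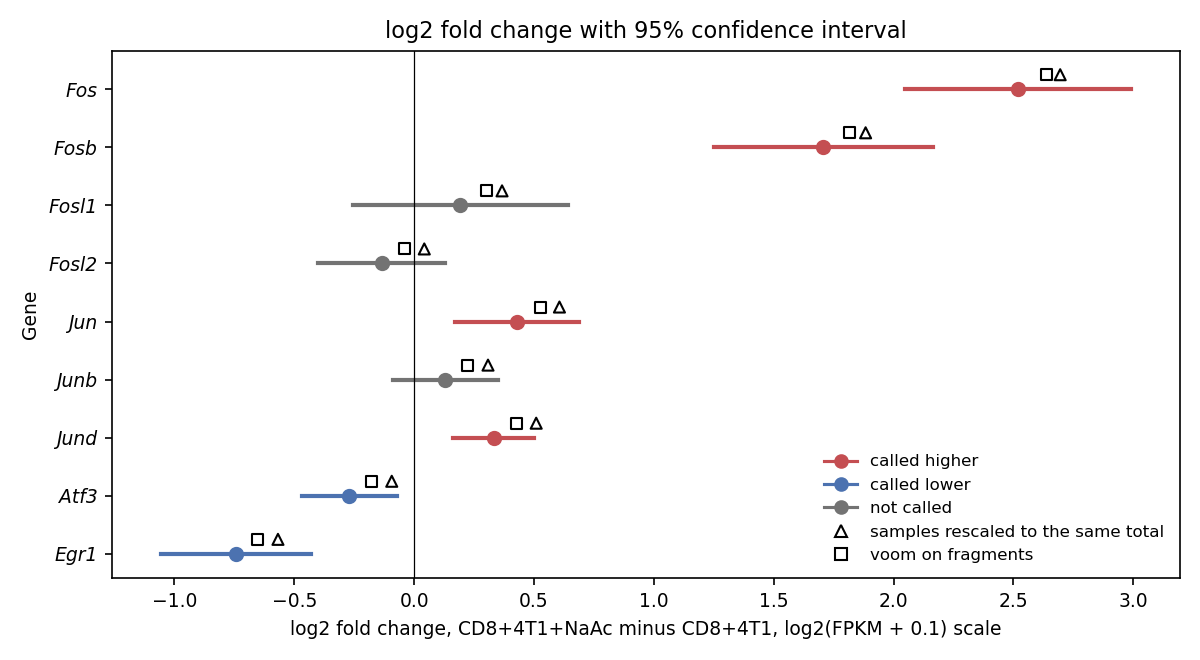
log2 fold change (CD8+4T1+NaAc minus CD8+4T1) on the log2(FPKM + 0.1) scale with its 95% confidence interval for the 9 genes tested, coloured by call. Open triangles show samples rescaled to the same total and open squares show voom on fragments, both of which lie to the right of the main value and move Atf3 to -0.09 and Fosl2 to 0.04 (triangles).

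The order of the levels differed between the groups, most for Fos and Egr1. Without NaAc the order by mean FPKM was Junb, Atf3, Jund, Jun, Egr1, Fosl2, Fosb, Fosl1, Fos and Maf. In that order Jun and Egr1, Egr1 and Fosl2, and Fosl1 and Fos overlapped over their samples, and the other neighbours did not. With NaAc the order was Junb, Jund, Atf3, Jun, Fos, Fosb, Fosl2, Egr1, Fosl1 and Maf. Jund and Atf3 overlapped there, as did each neighbouring pair from Jun to Fosl2. Fos thus stood at place 9 without NaAc and at place 5 with NaAc, and Egr1 went from place 5 to place 8. The ratio of Fos to Egr1 in FPKM was 0.148 to 0.359 without and 1.64 to 2.89 with NaAc, and the ratio of Jun to Atf3 also did not overlap, with medians of 0.270 and 0.442.

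The makeup of the FOS transcripts differed more than that of the JUN transcripts. The summed FPKM of Fos, Fosb, Fosl1 and Fosl2 was 39.8 to 49.9 without and 65.1 to 116.6 with NaAc. Fosl2 gave the larger part of it without NaAc, with a median share of 56.1%, and fell to 24.4%, whereas Fos went from 12.7% to 38.5% and Fosb from 18.4% to 30.1%. The share of Fosl1 went from 13.6% to 7.13%, and none of the 4 shares of FPKM overlapped between the groups. As a share of fragments, Fosl1 did overlap, at 3.36% to 4.27% without and 2.19% to 3.99% with NaAc. Since Fosl1 and Fosl2 themselves did not pass the test, their smaller shares go with the larger sum. Of the summed JUN genes, Junb made up a median of 63.6% and 59.5%, Jund 27.3% and 28.9%, and Jun 9.68% and 11.2%, all with overlapping groups. The FOS sum was 15.3% to 18.9% of the JUN sum without NaAc and 24.4% to 34.5% with NaAc, so JUN transcripts exceeded FOS transcripts in every sample. These shares are descriptions with no test, and they speak of transcripts, not of protein dimers.

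**Figure D3:**
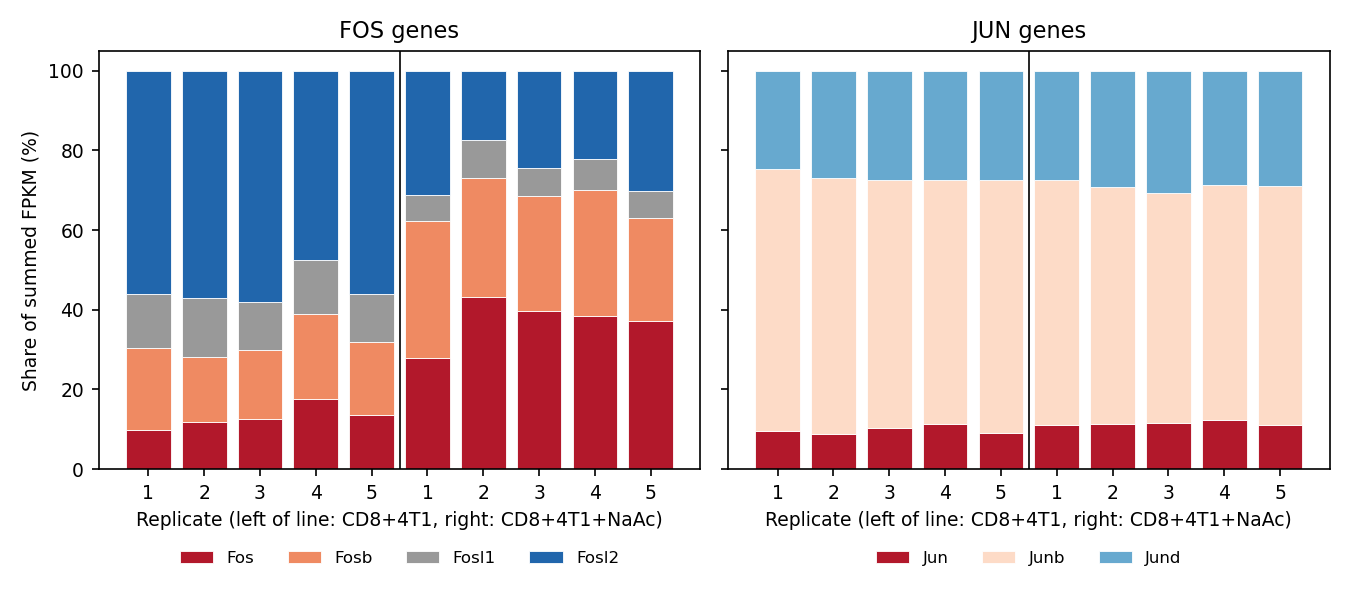
Share of each gene in the summed FPKM of the 4 FOS genes (left) and the 3 JUN genes (right), in percent, 1 bar per sample, with CD8+4T1 samples left of the line and CD8+4T1+NaAc samples right of it. Fos and Fosb take a larger share and Fosl2 a smaller share in each NaAc sample, and the JUN bars look alike.

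The summed level of epithelial and 4T1 markers was higher in the NaAc samples, as Fos and Fosb were. Of 22 epithelial and 4T1 markers, 12 were tested, 6 were higher (Krt8, Krt18, Krt7, Cldn3, Lcn2 and Spint1) and 1 was lower (Krt17), 58.3% beside 36.5% of all genes tested. None of the 22 was at 0 in all samples, but 10 averaged under 0.5 FPKM and were not tested. Among these, Cdh1 (means of 0.032 and 0.606 FPKM) and Elf3 (0.103 and 0.790 FPKM) were higher with NaAc without overlap. The rest of the untested markers overlapped between the groups. Their summed FPKM was 39.9 to 51.1 without and 96.4 to 213.7 with NaAc. Spint2, at means of 20.7 FPKM without and 19.2 FPKM with NaAc (not called), was the largest member of the sum without NaAc. The rise of the sum is thus smaller than that of the markers that rose most. Among the NaAc samples the sum was 104.4, 213.7, 137.7, 164.9 and 96.4 in replicates 1 to 5, the same order of samples as for Fos. Fosb did not follow that order, since NaAc replicate 1 had its second highest value, 33.8 FPKM. Per 100 FPKM of this sum, Spint2 included, Fos was 11.5 to 15.9 FPKM without and 23.5 to 26.1 FPKM with NaAc, without overlap. Fosb overlapped on that scale, at 16.8 to 24.3 and 16.4 to 32.4 FPKM, and the other 8 genes were lower with NaAc without overlap. The sum itself was higher in every NaAc sample, so a gene that rose less than the sum comes out lower on this scale. These ratios depend on Spint2, which did not rise. By the ratio of means, Krt8, Krt18, Krt7, Cldn3 and Lcn2 rose from 7.02-fold (Cldn3) to 12.5-fold (Krt7). Fos rose 5.88-fold, Fosb 3.36-fold and Spint1 1.997-fold, and Krt17 fell. Ratios of Fos and Fosb to the markers that rose were not computed. Per 100 FPKM of T cell markers Fos and Fosb were higher without overlap and the other 8 genes overlapped, Egr1 among them at 1.21 to 2.14 and 0.715 to 1.34 FPKM. In bulk RNA a change in the number of cells of a type and a change in RNA per cell cannot be told apart. The part of the tumor cell markers in the changes of Fos, Fosb, Jun and Jund, and of the gene lists below, was not tested.

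Other cell types were checked with lists of their own markers. The summed T cell markers were 1489 to 1667 FPKM without and 1234 to 1589 FPKM with NaAc, with 1 of 15 higher (Zap70) and 7 lower, 53.3% beside 36.5% of all genes tested. Myeloid markers summed to 26.8 to 37.1 and 29.8 to 34.7 FPKM, with Lyz2 and S100a8 higher among 5 tested and S100a9 at 0. B cell markers summed to 4.12 to 4.98 and 4.98 to 6.34 FPKM, with none of 2 tested genes called. Markers of CD4 T cells and NK cells summed to 0.812 to 1.73 and 2.08 to 3.004 FPKM, where Cd4 rose from a mean of 0.541 to 1.60 FPKM. Fibroblast markers summed to 196.4 to 220.3 and 179.1 to 212.5 FPKM, nearly all of it Thy1, which T cells express, with Pdgfra higher and Col3a1 at 0. The part of these cells in the results was not tested.

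**Figure D4:**
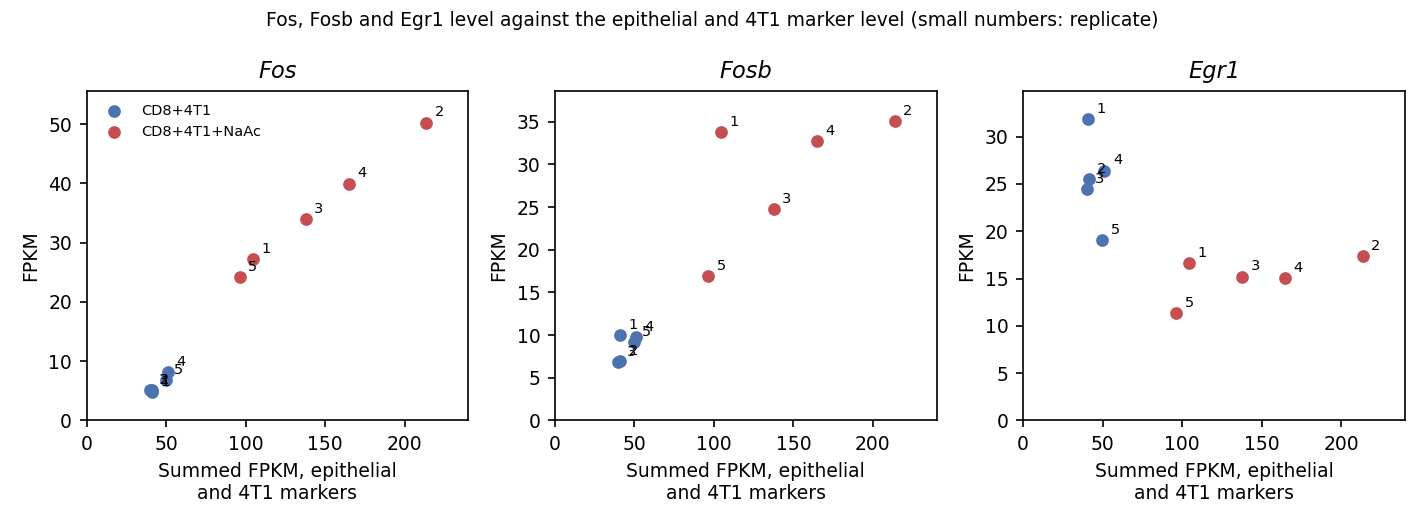
FPKM of Fos, Fosb and Egr1 against the summed FPKM of the 22 epithelial and 4T1 markers in each sample, with CD8+4T1 in blue, CD8+4T1+NaAc in red, and the replicate number beside each point. Fos follows the order of the marker sum within the NaAc samples, from 24.2 to 50.3 FPKM, and the Egr1 points of these samples lie below those of the CD8+4T1 samples.

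The bZIP partners of the 10 genes were mostly lower or not called. Of 22 tested, 4 were higher and 9 lower, 59.1% beside 36.5% of all genes tested, with a median log2 fold change of -0.10. When samples were rescaled to the same total, 7 were higher and 4 lower. Jdp2, which encodes a repressor that pairs with JUN, rose from a mean of 4.57 to 7.76 FPKM (log2 fold change 0.72, adjusted p = 0.0139). Bach1, a partner of the small MAF proteins, rose from 2.54 to 3.27 FPKM (0.35, adjusted p = 0.0193), but its adjusted p was 0.0514 without NaAc replicate 4 and 0.0512 without replicate 1 of both groups. Atf5 fell from 40.4 to 19.8 FPKM (-1.04, adjusted p = 6.81e-05), and Maff, a small MAF gene, fell from 9.65 to 5.27 FPKM (-0.91, adjusted p = 0.00281). Batf3, the partner of JUN known from dendritic cells and activated T cells, fell by 0.79 on the log2 scale (adjusted p = 0.000614) and was named after its value was seen.

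Transcripts of kinases and SRF cofactors that act upstream of Fos and Egr1 were also counted. Of 26 tested, 3 were higher and 5 lower, 30.8% beside 36.5% of all genes tested, and the median log2 fold change was -0.02, the same as over all genes. Rescaled to the same total, 11 were higher and 3 lower. Without NaAc replicate 1, 5 were higher and 6 lower, and without replicate 1 of both groups 7 were higher and 7 lower. Mapk13, which encodes p38 delta, rose from 0.982 to 3.16 FPKM (1.55, adjusted p = 0.00309), and Rasgrp1, the RAS activator of T cell receptor signalling, rose from 22.5 to 28.6 FPKM (0.34, adjusted p = 0.00258). Elk4, an SRF cofactor, fell from 24.01 to 16.04 FPKM (-0.59, adjusted p = 0.00046), and Hras fell from 16.8 to 11.9 FPKM (-0.51, adjusted p = 0.00382). These are transcript levels and carry no measure of kinase activity, and the part of tumor cell RNA in them was not tested.

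Other immediate early genes moved in both directions, as Fos and Egr1 did. Of 33 tested, 14 were higher and 8 lower, 66.7% beside 36.5% of all genes tested, with a median log2 fold change of 0.04. The counts were 16 higher and 4 lower when samples were rescaled to the same total. Epithelial and 4T1 markers were summed to a higher level in the same NaAc samples, and their part in these changes was not tested. Ccn1, a matricellular protein gene, rose from 1.52 to 11.0 FPKM (2.72, adjusted p = 3.81e-05), and Sgk1, a kinase induced by serum and glucocorticoid, rose from 3.24 to 12.2 FPKM (1.84, adjusted p = 0.000135). Egr3 fell from 7.70 to 3.93 FPKM (-0.96, adjusted p = 0.000245) beside Maff, given above with the bZIP partners. Among genes picked after their values were seen, Dusp1, the MAP kinase phosphatase, rose (0.92, adjusted p = 0.000595), as did Zfp36, which speeds the decay of unstable mRNA (0.57, adjusted p = 0.00531). Egr2 had a log2 fold change of 0.08 (adjusted p = 0.622) and Ier2 of -0.16 (adjusted p = 0.199), the second of which turned to 0.01 with samples rescaled to the same total and passed the test without NaAc replicate 2 (adjusted p = 0.0288). The EGR family was thus not uniform, with Egr1 and Egr3 lower and Egr2 not called. The EGR corepressor Nab1 rose from 18.3 to 21.6 FPKM (0.23, adjusted p = 0.00761). Nab2 went from 13.8 to 10.8 FPKM (-0.35, adjusted p = 0.0468) and lost its call in 4 alternative fits and in 8 of 10 fits with 1 sample left out.

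**Figure D5:**
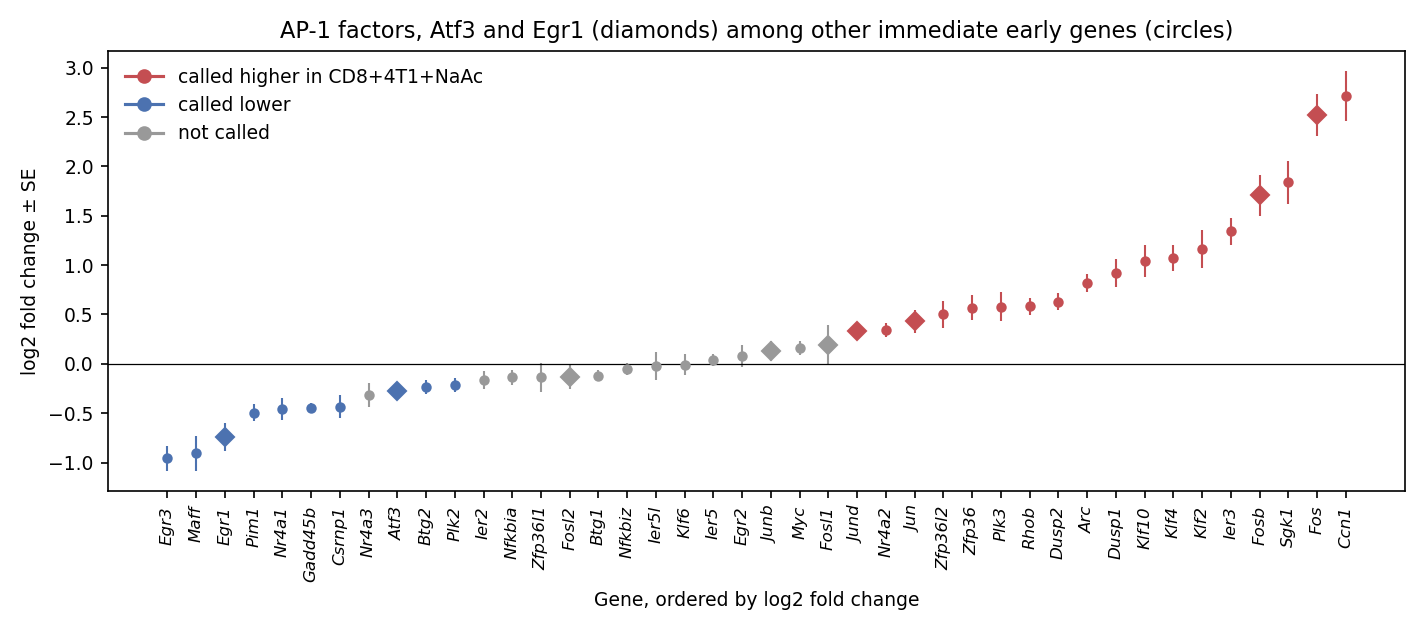
log2 fold change (CD8+4T1+NaAc minus CD8+4T1, ± SE) of the 9 tested genes of the AP-1 and EGR1 set (diamonds) and 33 other immediate early genes (circles), ordered by value. Ccn1 at 2.72 and Fos at 2.52 are at the right end and Egr3 at -0.96 at the left end.

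Genes known as AP-1 targets were counted by the cells they are known from. Of 15 T cell targets tested, 2 were higher and 4 lower, 40% beside 36.5% of all genes tested, with a median log2 fold change of -0.08. Rescaled to the same total, 5 were higher and 1 lower, and without NaAc replicate 1, 4 were higher and 5 lower. Il3, a cytokine gene, rose from 18.5 to 47.97 FPKM (1.38, adjusted p = 7.36e-05), and the chemokine gene Ccl3 rose from 219.9 to 343.9 FPKM (0.65, adjusted p = 0.000445). Lta, which encodes lymphotoxin alpha, fell from 147.6 to 59.5 FPKM (-1.33, adjusted p = 3.84e-05). Tnfsf14 fell from 15.2 to 11.2 FPKM (-0.45, adjusted p = 0.00402) and was not called when samples were rescaled to the same total (adjusted p = 0.0691). Ifng, the most abundant of the list, had means of 480.9 and 407.6 FPKM and did not pass the test (-0.27, adjusted p = 0.243), and it too was picked after its values were seen. Of 10 tested genes known as c-MAF targets, 2 were higher and 3 lower (4 and 1 when rescaled), 50% beside the same 36.5%. Havcr2, which encodes TIM-3, rose from 2.63 to 7.43 FPKM (1.46, adjusted p = 9.05e-06). Tigit fell from 148.1 to 119.5 FPKM (-0.31, adjusted p = 0.00713), a call lost when rescaled (adjusted p = 0.196).

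The AP-1 targets known from carcinoma cells gave 18 of 27 tested genes higher and 4 lower, 81.5% beside 36.5% of all genes tested, with a median log2 fold change of 1.36. They gave 18 higher and 2 lower when samples were rescaled to the same total. Cxcl1, a neutrophil chemokine gene, rose from 4.13 to 37.5 FPKM (3.16, adjusted p = 8.1e-05), and Mmp9, a matrix protease gene, rose from 1.45 to 13.9 FPKM (3.13, adjusted p = 9.05e-06). Plaur, the urokinase receptor gene, fell from 57.7 to 34.2 FPKM (-0.76, adjusted p = 4.21e-05), and Lif fell from 31.7 to 23.8 FPKM (-0.42, adjusted p = 0.0142), a call lost when rescaled (adjusted p = 0.131). The summed epithelial and 4T1 markers given above were higher in the same samples, and their part in this list was not tested.

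Genes whose spread within the groups was most like that of Fos were found by the correlation of deviations from the group means of log2(FPKM + 0.1) over the 10 samples, among 10626 protein-coding genes that averaged 1 FPKM or more. They were Adh7 (r = 0.98), Cx3cl1 (0.97), Pcolce (0.97), Nos2 (0.97) and Myof (0.97). Each of these rose with NaAc, with means of 0.323 and 2.04 FPKM for Adh7 and 2.17 and 15.3 FPKM for Nos2. For Egr1 they were Socs5 (0.96), Spry4 (0.95), Tnfrsf23 (0.95), Tcim (0.95) and Itga5 (0.94), of which only Tcim was called, and it was higher with NaAc. Among the other 8 tested genes, Fos was most like Fosl1 (0.73) and Fosb (0.60), and Egr1 was most like Junb (0.76), Jund (0.74) and Jun (0.71). Between Fos and Egr1 r was 0.15. The points share their libraries and scaling, and these values are descriptions with no test.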

How the data were processed

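RNA of co-cultured CD8+ T cells was sequenced in 10 samples, 5 per group, assigned by the sample labels. The authors prepared libraries with a NEBNext Ultra kit and sequenced them on a NovaSeq instrument. The submitters' processing notes name fastp, HISAT2 2.0.5, StringTie 1.3.3b and featureCounts 1.5.0-p3. The table that the authors deposited gives FPKM for each gene and sample without pooling, beside an other column with gene length. The authors tested the groups with DESeq2. Genome build, annotation and strand setting are not given in the sources used here. Positions are as deposited and differ from GRCm38 (1467 of 52073 shared genes have the same start and end).

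FPKM times gene length gave whole multiples of 1 step for 100% of values (within 0.1), which recovers fragments per gene. FPKM are not counts, so limma 3.58.1 (R 4.3.3, trend and robust moderation, two-sided) was run on log2(FPKM + 0.1) for the 15710 genes that averaged 0.5 FPKM or more. Calls needed a Benjamini-Hochberg adjusted p under 0.05 over all of them. The pseudocount makes folds of low genes too small. Overlap of groups and shares were described without a test. Alternatives were pseudocounts of 1 and 0.01, a common total for all samples, median-ratio scaling, a minimum mean of 5 FPKM, no filter, no trend or robust moderation, voom on the recovered fragments, a replicate block, an adjusted p under 0.01, each sample left out, and replicate 1 of both groups left out. The ratios to marker sums were added after the values were seen. The genes and lists were chosen with earlier results of these data known. Named list genes are, per list, the 2 higher and 2 lower calls with the largest log2 fold change among genes averaging 1 FPKM or more, and other names are said to have been picked later. A gene of the c-MAF target list enters the counts only and its own values are not reported here. Promoters came from RefSeq (GRCm38.p6). Figures were drawn with matplotlib 3.10.9.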

Additional observations from a re-analysis of the deposited data

How the results depend on the processing

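Fos, Fosb, Jun, Jund and Egr1 kept direction and call in each of the 9 alternative fits on all samples, with each sample left out, and without replicate 1 of both groups. At an adjusted p under 0.01, 4 of the 9 genes were called, beside 3702 of all 15710 genes tested. Jun (adjusted p = 0.0147 in the main fit) and Atf3 (0.0362) lost their calls there. The number of the 9 called was 5 to 7 with 1 sample left out, 7 without NaAc replicate 1, and 5 without replicate 1 of both groups. Over all genes, 5742 were called, 2764 higher and 2978 lower, and leaving out 1 sample gave 4947 to 6965 called, 2369 to 3408 higher and 2524 to 3557 lower. With a minimum mean of 5 FPKM, 3733 of 7800 genes were called and 1257 were higher (33.7% of the calls), and the cause was not tested. At an adjusted p under 0.01, 3702 were called, 1832 higher and 1870 lower. Rescaling to the same total gave 4918 higher and 1386 lower, and turned Fosl2 to 0.042 and Ier2 to 0.0135, since it shifts every NaAc sample upward. With voom 3990 were higher and 2100 lower. The replicate numbers did not pair the samples (correlations of deviations between -0.03 and 0.07), and the replicate block gave 5399 called genes and 6 of the 9. FOS shares of fragments in place of FPKM had a median of 4.14% and 17.5% for Fos and 76.1% and 45.1% for Fosl2, and Fosl1 overlapped between the groups. Fragments weight long genes more. Maf rests on 23 to 50 fragments per sample.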
